A study of Mus musculus with 6 samples.

Results

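The 33 genes described here are genes that endothelial cells, the cells lining blood vessels, are known to express. They are general, capillary, arterial and activation-related endothelial genes picked by symbol. The rule uses no measured value, but the list was drawn up with earlier results of these data known. They are 33 of the 31273 genes in the table, and all 33 had a mean of at least 1 TPM (a level scaled to a fixed total per library and corrected for gene length) over the 6 libraries, the minimum for testing. RNA came from the left ventricle of mice with RBM20 overexpression labelled as restricted to cardiomyocytes (3 libraries) and of mice labelled as control (3 libraries). RBM20 is a splicing factor of heart muscle, and the series' text describes a tamoxifen-inducible knock-in. The control libraries carry "cki" and the overexpression libraries "cre" in their titles. The alleles of the controls, the strain, the ages and the tamoxifen given are not in the labels. Whether the libraries of a group are separate animals is not stated in them. Overexpression replicate 1 differed from the other overexpression libraries in sex-linked transcripts (values below), so it was not from the same animal as they were. For the rest this is open, so p-values measure the spread between these libraries, which may be partly technical.

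Endothelial cells of the heart form a dense capillary bed beside the muscle fibres and hand fatty acids to them. VEGF acts through the receptors Kdr and Flt1, angiopoietins act through Tek with its relative Tie1, and Notch signalling between neighbouring cells, with Dll4 as ligand, shapes arterial and sprouting vessels. The label places the overexpression in cardiomyocytes, whereas these 33 genes mark another cell type of the same tissue. In bulk ventricle RNA, fewer endothelial cells and less RNA per endothelial cell cannot be told apart.

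Rbm20 itself was listed at 321, 913 and 907 TPM in the overexpression libraries, against 74.9, 90.9 and 79.5 TPM in control, so each library went with its genotype label. Esr1, the gene of an oestrogen receptor, was listed at 218, 53.0 and 199 TPM in the overexpression libraries, against 0.415, 0.234 and 0.300 TPM in control. Inducible forms of Cre commonly carry part of an oestrogen receptor, and the source of these reads was not tested. RBM20 overexpression and anything else that differs between the genotypes cannot be told apart. The table holds no read counts, and steps between low values gave an approximate depth of 50980000 to 89960000 reads in the overexpression libraries and 41600000 to 70500000 in control. At that depth the member with the fewest reads was Aplnr, with about 14 in control replicate 1. Transcripts encoded by mitochondria took 36.7% to 41.0% of all TPM in the overexpression libraries, against 48.3% to 52.0% in control. TPM shares a fixed total, and the median log2 difference over the 12404 genes tested was 0.55. Each difference is therefore given on 3 scales, namely in deposited TPM, after rescaling each library by the median of its ratios to the average library (median over all genes 0.01), and relative to a core of 6 general endothelial genes of the same library (median 0.33). Control replicate 1 and overexpression replicate 3 are called here the libraries that stand apart within their groups. Their deviations from the group means correlated at 0.38 over 12404 genes, a description of 2 libraries. Those of overexpression replicate 3 and control replicate 2 correlated at -0.38. Deviations within a group cancel, so these values do not single out control replicate 1 over control replicate 2. Overexpression replicate 1 had 88.1 TPM of the Y-linked Ddx3y and 0.0172 TPM of Xist, whereas the other 5 libraries had no Ddx3y and 34.4 to 62.6 TPM of Xist. The part of either split in the results was not tested, and values without the libraries that stand apart are given where they differ.

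The endothelial genes as a group lagged behind the general shift in this table. Their median log2 difference was 0.18 in deposited TPM, against 0.55 over all genes tested. After rescaling it was -0.39, against 0.01 over all genes, and relative to the core the 27 members outside it had a median of -0.09, against 0.33. In deposited TPM 8 of 33 members rose (24.2%) and 0 fell, against 59.0% of all genes called higher and 9.09% called lower. At an unadjusted limma p under 0.05, 9 members were higher and 0 lower. The share of all genes was not tallied at that threshold. Genes called after adjustment pass it too, so at least 59.0% of all genes were higher and 9.09% lower at it. After rescaling 2 rose (6.06%) and 8 fell (24.2%), against backgrounds of 22.2% called higher and 24.0% called lower. The share of members called lower after rescaling was thus near that of all genes. Relative to the core 6 of 27 rose and 3 fell, against 42.3% and 12.5% of all genes. The summed TPM of the 33 genes was 2917 to 3293 in the overexpression libraries and 2285 to 2986 in control. After rescaling the sums were 2336 to 2575 with overexpression and 2917 to 3756 in control, so the groups overlapped in TPM and were apart after rescaling. With mitochondrially encoded transcripts taken out of the TPM total, 5 members rose and 4 fell, the 4 being Tie1, Sox18, Fabp4 and Hey1. Shares over all genes were not tallied under that total, so these counts have no background beside them.

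**Figure D1:**
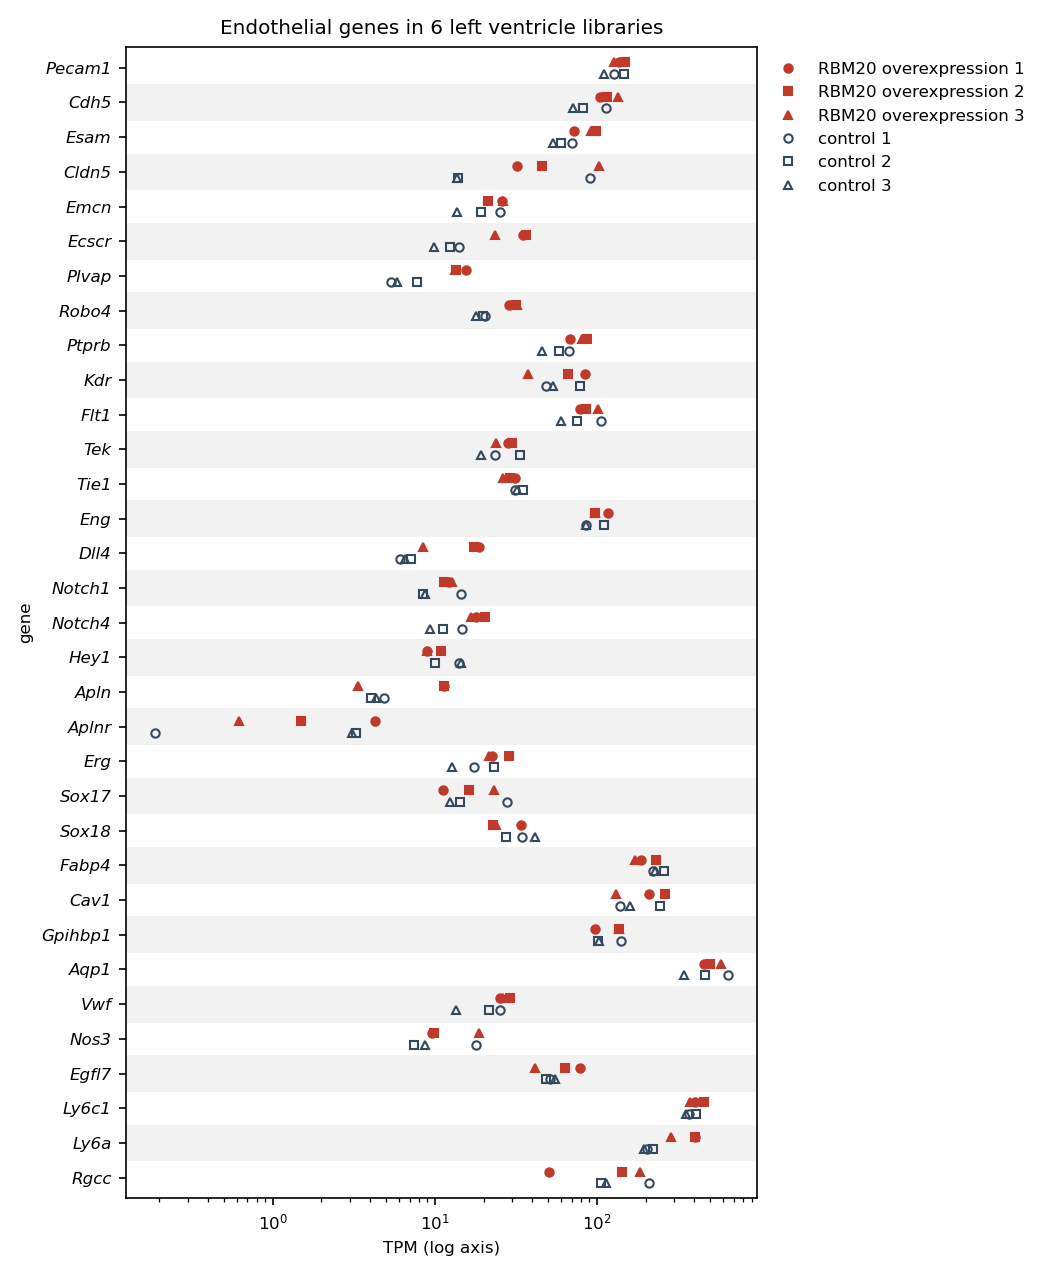
TPM of the 33 endothelial genes in each library, on a log axis, with RBM20 overexpression as filled red symbols above and control as open symbols below, and circle, square and triangle for replicates 1, 2 and 3. The overexpression libraries lie wholly above control in Ecscr and Plvap, among others, and Aplnr spreads most within each group.

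**Figure D2:**
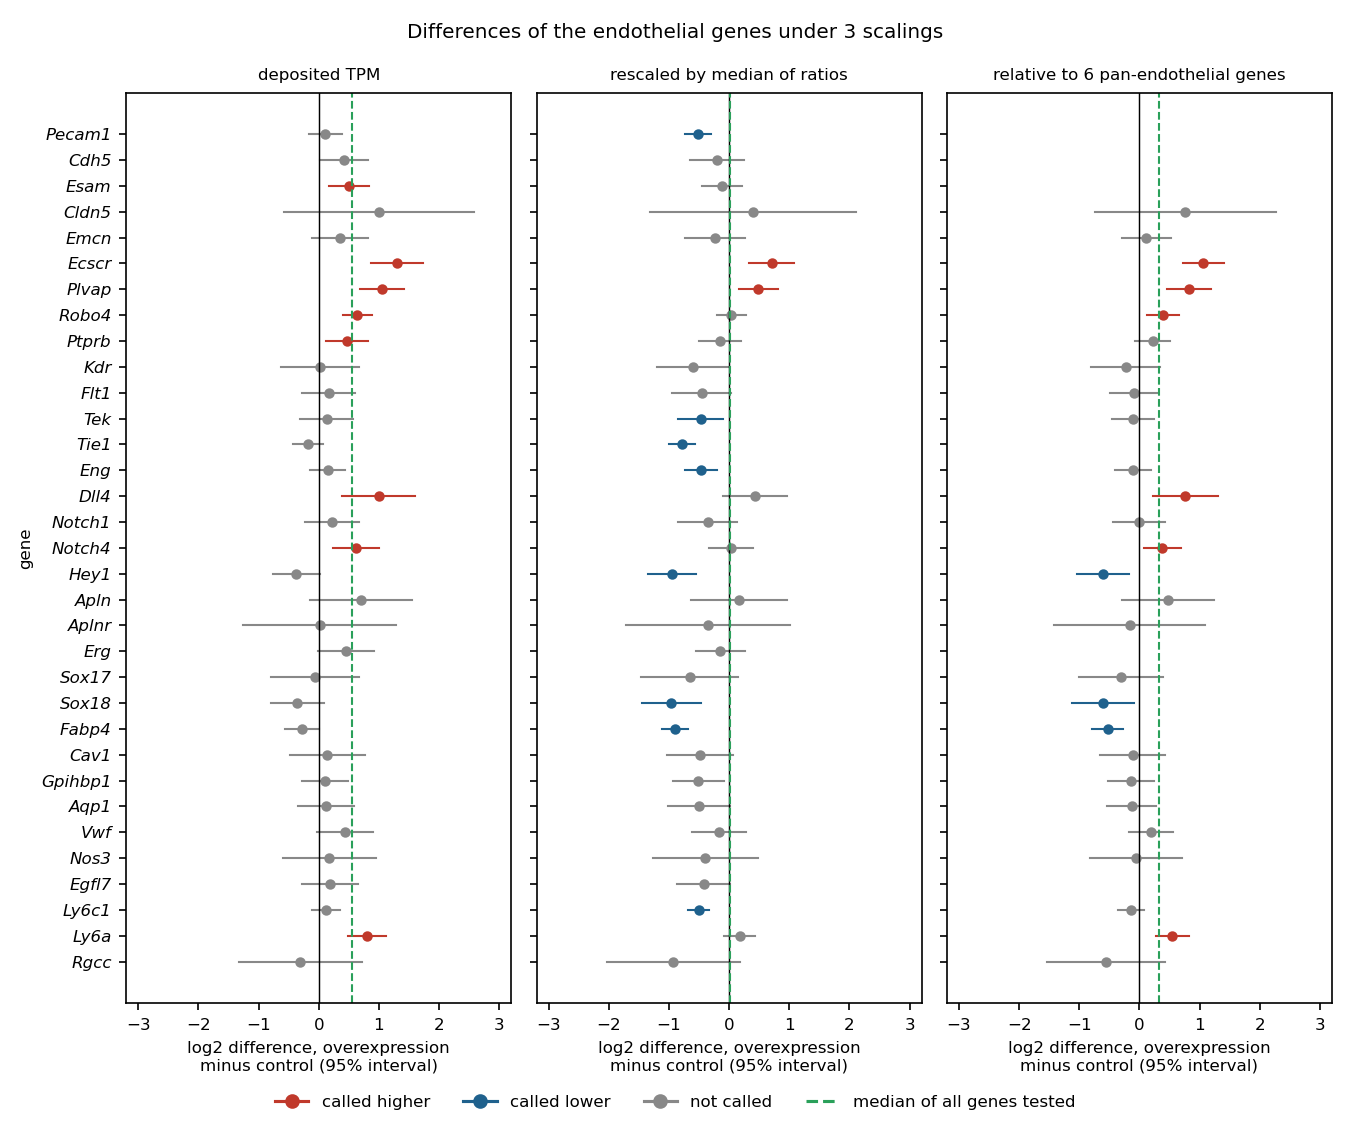
Log2 differences of the endothelial genes (overexpression minus control, points with 95% limma intervals) in deposited TPM, after rescaling by median of ratios, and relative to 6 general endothelial genes, which are left out of the third panel. Called increases are red, called decreases blue and genes not called grey, and the dashed line is the median of all genes tested at 0.55, 0.01 and 0.33. Ecscr and Plvap are red in all 3 panels.

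Junction and surface genes held 5 of the 8 increases in deposited TPM, namely Ecscr, Plvap, Robo4, Esam and Ptprb, out of 9 members of this kind. That share of 55.6% was near the 59.0% of all genes called higher. Ecscr, a small membrane protein of endothelial cells that is linked to cell migration, had 35.1, 36.8 and 23.7 TPM in the overexpression libraries, against 14.2, 12.5 and 9.95 TPM in control. The lowest overexpression library exceeded the highest control library. Ecscr averaged 31.8 ± 7.14 TPM with overexpression and 12.2 ± 2.13 TPM in control (SD, n = 3 each), a 2.61-fold difference. The log2 difference was 1.30 (SE 0.191, limma adjusted p = 0.000484) in TPM, 0.71 after rescaling (adjusted p = 0.00886) and 1.06 relative to the core (adjusted p = 0.000442). It was the largest increase among the members tested on each of the 3 scales, and leaving out any 1 library kept it called on each. Its locus is chromosome 18, bases 35713086 to 35722356, minus strand (GRCm38, GENCODE M21 annotation).

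Plvap forms the diaphragms of fenestrated endothelium and of caveolae. It had 15.6, 13.5 and 13.3 TPM in the overexpression libraries, against 5.37, 7.81 and 5.87 TPM in control. The groups did not overlap, and control replicate 2 came closest to the overexpression libraries. Its mean was 14.1 ± 1.25 TPM with overexpression and 6.35 ± 1.29 TPM in control (SD, n = 3 each), 2.22-fold higher. The limma difference was 1.05 (SE 0.158, adjusted p = 0.000538) in TPM, 0.49 after rescaling (adjusted p = 0.0242) and 0.82 relative to the core (adjusted p = 0.00261). After rescaling the call was lost without control replicate 1 (0.40, adjusted p = 0.0648), without control replicate 3 (0.46, 0.0795), without overexpression replicate 1 (0.43, 0.0699) and without overexpression replicate 3 (0.48, 0.0615). The Plvap locus is chromosome 8, bases 71497765 to 71511752, minus strand.

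Robo4, an endothelial receptor of the Roundabout family that stabilises vessels, was the steadiest of the 9 within groups. It had 28.6, 31.6 and 32.0 TPM in the overexpression libraries, against 20.4, 19.7 and 18.1 TPM in control. The groups stood apart, with means of 30.7 ± 1.90 and 19.4 ± 1.19 TPM (SD, n = 3 each; overexpression and control), 1.59-fold. Robo4 differed by 0.64 (SE 0.106, limma adjusted p = 0.000926) in TPM and 0.39 relative to the core (adjusted p = 0.0196), but 0.04 after rescaling (SE 0.105, adjusted p = 0.801). The core-relative call was lost without overexpression replicate 3 (0.31, adjusted p = 0.0827), without control replicate 2 (0.37, adjusted p = 0.0694), and with both libraries that stand apart left out (0.31, adjusted p = 0.111). Its TPM call held with any 1 library left out.

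Esam, an adhesion molecule of tight junctions, had 72.5, 98.1 and 91.9 TPM in the overexpression libraries, against 70.3, 59.9 and 53.5 TPM in control. Ptprb, the phosphatase that acts on Tek and on VE-cadherin, had 68.2, 87.3 and 81.0 TPM with overexpression, against 67.0, 58.5 and 45.8 TPM in control. In both genes overexpression replicate 1 lay just above control replicate 1, so the groups were apart by a narrow margin. Esam differed by 0.50 (limma adjusted p = 0.0128) and Ptprb by 0.47 (adjusted p = 0.0237) in TPM, and after rescaling they stood at -0.11 (adjusted p = 0.552) and -0.15 (adjusted p = 0.447). The TPM call of Esam was lost without overexpression replicate 2 (0.42, adjusted p = 0.0521) or control replicate 3 (0.41, adjusted p = 0.0535). That of Ptprb was lost without overexpression replicate 2 (0.39, adjusted p = 0.0877), overexpression replicate 3 (0.45, adjusted p = 0.0604) or control replicate 3 (0.32, adjusted p = 0.0826), and with no filter on low values (adjusted p = 0.0531). With mitochondrially encoded transcripts taken out of the total, Esam stood at 0.23 (adjusted p = 0.181) and Ptprb at 0.19 (adjusted p = 0.269), neither called.

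The other 4 junction and surface genes did not pass the test in deposited TPM. Pecam1, the adhesion molecule CD31, averaged 138 ± 10.8 TPM with overexpression and 129 ± 18.7 TPM in control, and was lower after rescaling (-0.52, limma adjusted p = 0.00302). Cdh5, the junction protein VE-cadherin, averaged 118 ± 15.3 and 89.5 ± 22.3 TPM in overexpression and control libraries, and Emcn, a sialomucin of capillaries and veins, 24.5 ± 2.73 and 19.4 ± 5.74 TPM (SD, n = 3 each). Without control replicate 1 both were called higher in TPM, Cdh5 at 0.61 (adjusted p = 0.00487) and Emcn at 0.56 (adjusted p = 0.0238). Cdh5 was also called without overexpression replicate 1 (0.50, adjusted p = 0.0467).

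Cldn5, the main claudin of endothelial tight junctions, had 1 library in each group that went against the others. It had 32.1, 46.1 and 103 TPM in the overexpression libraries, against 90.1, 14.0 and 13.7 TPM in control. Overexpression replicate 3 and control replicate 1 were both far above the other libraries, so the groups overlapped. The difference of 1.01 had an SE of 0.692 (limma adjusted p = 0.222). Without control replicate 1 it was 1.88 (adjusted p = 0.00353) in TPM and 1.59 (adjusted p = 0.0165) relative to the core. With both of these libraries left out it was 1.41 in TPM, 0.77 after rescaling and 1.08 relative to the core. These 2 libraries were picked after the values were seen and are the ones that widen the spread of Cldn5. A test without them is therefore no support for a difference. With all 6 libraries Cldn5 was not called on any scale (limma adjusted p = 0.690 after rescaling and 0.354 relative to the core).

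None of the 5 receptors for VEGF, angiopoietin and BMP-type ligands passed the test in deposited TPM, and their median log2 difference was 0.13, against 0.55 over all genes. After rescaling 3 of the 5 fell, against 24.0% of all genes. Tie1, the receptor-like partner of Tek, had 31.2, 28.9 and 26.4 TPM in the overexpression libraries, against 31.1, 34.8 and 32.4 TPM in control. Overexpression replicate 1 matched control replicate 1 and the other libraries were apart. The difference was -0.18 (limma adjusted p = 0.166) in TPM and -0.79 (SE 0.0909, adjusted p = 0.000326) after rescaling. Tek, the angiopoietin receptor, averaged 27.3 ± 3.27 TPM with overexpression and 25.4 ± 7.24 TPM in control, and Eng, the TGF-beta co-receptor endoglin, 104 ± 11.2 TPM with overexpression and 93.7 ± 14.1 TPM in control (SD, n = 3 each). After rescaling Eng was at -0.47 (adjusted p = 0.0131) and Tek at -0.47 (adjusted p = 0.0431). The rescaled call of Tek was lost without control replicate 1 (adjusted p = 0.0621), control replicate 2 (adjusted p = 0.0964), or overexpression replicate 1, 2 or 3 (adjusted p = 0.0786, 0.0983 and 0.113). It was also lost with no filter on low values (adjusted p = 0.089) and with a constant prior variance (adjusted p = 0.0586).

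Kdr, the main VEGF receptor, had 84.0, 66.8 and 37.5 TPM in the overexpression libraries, against 48.4, 78.4 and 53.4 TPM in control. Flt1, the VEGF receptor that also acts as a decoy, had 78.6, 85.2 and 101 TPM with overexpression, against 106, 75.9 and 59.7 TPM in control. The groups overlapped in both receptors, and overexpression replicate 3 was the lowest of all for Kdr and close to the highest for Flt1. Their TPM differences were 0.02 for Kdr (limma adjusted p = 0.954, 95% interval -0.63 to 0.67) and 0.17 for Flt1 (adjusted p = 0.466, 95% interval -0.28 to 0.61). Without overexpression replicate 1 Kdr was called lower after rescaling (-0.83, adjusted p = 0.0263). With both libraries that stand apart left out, Flt1 was called lower after rescaling (-0.38, adjusted p = 0.0352).

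In the Notch and apelin group, 2 of 6 members rose in deposited TPM (33.3%, against 59.0% of all genes), the ligand Dll4 and the receptor Notch4. Dll4 had 18.9, 17.4 and 8.43 TPM in the overexpression libraries, against 6.08, 7.14 and 6.53 TPM in control. Overexpression replicates 1 and 2 were far above control and replicate 3 lay just above it. Dll4 averaged 14.9 ± 5.65 TPM with overexpression and 6.58 ± 0.529 TPM in control (SD, n = 3 each), 2.26-fold. The limma difference was 1.00 (SE 0.264, adjusted p = 0.00937) in TPM, 0.76 (adjusted p = 0.023) relative to the core, and 0.43 (adjusted p = 0.169) after rescaling. Without overexpression replicate 3 it was called after rescaling too, at 0.72 (adjusted p = 0.00516). The core-relative call was lost without overexpression replicate 1 (0.57, adjusted p = 0.0725) or 2 (0.67, adjusted p = 0.0779), and without control replicate 1 (0.68, adjusted p = 0.0639) or 2 (0.78, adjusted p = 0.0506).

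Notch4, the Notch receptor most tied to endothelium, had 17.9, 20.5 and 16.7 TPM in the overexpression libraries, against 14.7, 11.2 and 9.40 TPM in control. The groups did not overlap, and control replicate 1 came closest. Notch4 differed by 0.62 (SE 0.168, limma adjusted p = 0.0107) in TPM, 0.38 (adjusted p = 0.0424) relative to the core and 0.03 (adjusted p = 0.889) after rescaling. The core-relative call was lost without control replicate 2 (0.32, adjusted p = 0.141) or 3 (0.32, adjusted p = 0.105), and without overexpression replicate 1 (0.39, adjusted p = 0.0745), 2 (0.35, adjusted p = 0.126) or 3 (0.39, adjusted p = 0.0823). With mitochondrially encoded transcripts taken out, the TPM call was lost as well (0.36, adjusted p = 0.0729). Notch1, the receptor of many tissues, averaged 12.1 ± 0.661 TPM with overexpression and 10.6 ± 3.41 TPM in control and was not called on any scale. Without control replicate 1 it was called higher in TPM (0.45, adjusted p = 0.0242).

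Hey1, a transcriptional repressor induced by Notch, was not called in deposited TPM and was called lower on both other scales. It had 8.99, 11.0 and 8.93 TPM in the overexpression libraries, against 14.2, 9.97 and 14.5 TPM in control. Control replicate 2 fell between the overexpression libraries and the other control libraries were higher. Its difference was -0.37 (limma adjusted p = 0.0783) in TPM, -0.95 (SE 0.173, adjusted p = 0.00305) after rescaling and -0.61 (adjusted p = 0.0225) relative to the core. Without control replicate 2 the TPM difference was called (-0.53, adjusted p = 0.0199). The core-relative call was lost without control replicate 1 (-0.57, adjusted p = 0.0535) or 3 (-0.44, adjusted p = 0.0742), without overexpression replicate 1 (-0.56, adjusted p = 0.0564), and with both libraries that stand apart left out (-0.58, adjusted p = 0.0742). Other Notch targets, chosen after their values were seen, were not called lower on any scale. Heyl had 18.9, 28.8 and 17.9 TPM with overexpression, against 12.6, 10.9 and 7.93 TPM in control, and rose in TPM (0.98, adjusted p = 0.00369) and relative to the core (0.75, adjusted p = 0.00507) but not after rescaling (0.40, adjusted p = 0.121). Hes1 had 31.1, 32.8 and 28.2 TPM with overexpression, against 16.1, 20.2 and 23.8 TPM in control, and rose in TPM only (0.60, adjusted p = 0.00655). Hey2 and Nrarp were not called on any scale. After rescaling Hey2 was at -0.26 (adjusted p = 0.365) and Hes1 at 0.002 (adjusted p = 0.992). The difference between Hey1 and any of these genes, Dll4 and Notch4 included, was not tested.

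Apln, the peptide ligand apelin made by sprouting endothelium, had 11.4, 11.5 and 3.34 TPM in the overexpression libraries, against 4.87, 4.03 and 4.34 TPM in control. Overexpression replicate 3 was below all control libraries. The difference was 0.70 (SE 0.372, limma adjusted p = 0.126). Without overexpression replicate 3 it was 1.20 (adjusted p = 0.000502) in TPM, 0.61 (adjusted p = 0.0166) after rescaling and 0.93 (adjusted p = 0.00267) relative to the core. Aplnr, the apelin receptor, had 4.28, 1.501 and 0.617 TPM with overexpression, against 0.188, 3.26 and 3.11 TPM in control. Control replicate 1 and overexpression replicate 3 were the lowest of all, and the difference was 0.01 with a 95% interval of -1.26 to 1.28.

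Upstream sequence was read for the Notch pair that rose in TPM, Dll4 and Notch4, and for Eng, which did not. The 250 bases before the annotated start are from RefSeq (GRCm38.p6, plus strand for all 3 genes), and capitals mark AGGAAG or its reverse complement CTTCCT, a core that many ETS factors bind, a family to which Erg belongs. Notch4 is at chr17:34564045-34564294, Dll4 at chr2:119325534-119325783 and Eng at chr2:32646345-32646594.
Notch4: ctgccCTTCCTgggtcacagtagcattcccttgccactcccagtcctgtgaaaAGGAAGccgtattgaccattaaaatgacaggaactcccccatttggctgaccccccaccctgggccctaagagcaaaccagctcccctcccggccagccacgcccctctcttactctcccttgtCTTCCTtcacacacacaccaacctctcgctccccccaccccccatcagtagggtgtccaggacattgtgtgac
Dll4: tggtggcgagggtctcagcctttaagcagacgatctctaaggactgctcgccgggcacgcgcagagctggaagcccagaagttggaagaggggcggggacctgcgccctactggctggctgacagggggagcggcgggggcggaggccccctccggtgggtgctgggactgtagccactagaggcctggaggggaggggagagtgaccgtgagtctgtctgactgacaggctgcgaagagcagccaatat
Eng: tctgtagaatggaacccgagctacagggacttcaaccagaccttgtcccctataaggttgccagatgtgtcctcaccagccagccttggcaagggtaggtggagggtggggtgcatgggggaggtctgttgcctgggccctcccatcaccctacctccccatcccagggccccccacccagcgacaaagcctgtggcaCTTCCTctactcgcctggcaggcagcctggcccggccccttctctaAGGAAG
Notch4 held 3 matches, beginning 245, 197 and 73 bases before the start, Eng held 2 at 52 and 6 bases, and Dll4 held 0 in this window. Promoters of 18 of the 33 members were in the RefSeq table, and 10 of these 18 (55.6%) held the motif on either strand, against 29.2% of 27025 mouse promoters. The matches were in Apln, Aqp1, Egfl7, Emcn, Eng, Flt1, Notch4, Rgcc, Robo4 and Tie1, a mix of genes called higher, called lower and not called. It was 1 of 12 strings counted on both strands. GGGCGG, a GC box, was likewise in 10 of 18, against 32.9% of all promoters, and GGAAGT, which shares GGAAG with the first motif, in 6 of 18, against 5401 of the 27025. Of the other ETS-like strings, CGGAAG was in 1 of 18 (13.8% of all), CCGGAAG, which contains it, in 0 (7.05%) and TTTCCTG in 1 (8.41%). Of SOX-like strings, ACAAT was in 4 (28.3%), AACAAT, which contains it, in 2 (9.65%) and ACAAAG in 3 (16.5%). TATAAA was in 3 (13.0%), CACGTG in 0 (6.05%) and TGGGAA in 5 (21.5%). The GC content of the 18 member windows ran from 40.8% to 70.4% with a median of 60.0%, against a median of 52.0% over all promoters, so these windows were richer in G and C, and base composition was not matched. A match is a run of letters, and binding was not measured.

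Of the 3 transcription factors, none passed the test in deposited TPM. Sox18, an SRY-related factor of vessel development, had 34.0, 22.7 and 23.7 TPM in the overexpression libraries, against 34.4, 27.6 and 41.7 TPM in control. Overexpression replicate 1 was within the control range and the other overexpression libraries were below it. The limma difference was -0.36 (adjusted p = 0.127) in TPM, -0.96 (SE 0.212, adjusted p = 0.00737) after rescaling and -0.60 (adjusted p = 0.0488) relative to the core. The core-relative call was lost without control replicate 1 (-0.64, adjusted p = 0.0764) or 3 (-0.38, adjusted p = 0.168), overexpression replicate 2 (-0.45, adjusted p = 0.16) or 3 (-0.58, adjusted p = 0.0941), and with both libraries that stand apart left out (-0.61, adjusted p = 0.111). Without overexpression replicate 1 the TPM difference was called (-0.53, adjusted p = 0.0266). Sox17, the relative tied to arterial identity, averaged 16.9 ± 6.02 TPM with overexpression and 18.1 ± 8.36 TPM in control (SD, n = 3 each) and was not called on any scale, and with both of these libraries left out it was called lower after rescaling (-0.60, adjusted p = 0.0284). Erg, the ETS factor that maintains endothelial identity, averaged 24.3 ± 3.88 and 17.8 ± 5.17 TPM in overexpression and control libraries, and was called higher in TPM only when control replicate 2 was left out (0.65, adjusted p = 0.0161).

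Capillary transport genes were among the most abundant members, and none of the 4 was called in deposited TPM. Fabp4, the fatty acid carrier of capillary endothelium, had 187, 232 and 171 TPM in the overexpression libraries, against 222, 261 and 228 TPM in control. Overexpression replicate 2 lay within the control range and the other overexpression libraries below it. Fabp4 averaged 197 ± 32.0 TPM with overexpression and 237 ± 21.0 TPM in control (SD, n = 3 each). The limma difference was -0.28 (adjusted p = 0.0795) in TPM, -0.90 (SE 0.0926, adjusted p = 0.00018) after rescaling and -0.53 (SE 0.117, adjusted p = 0.00448) relative to the core. The last 2 calls held with any 1 library left out, and without overexpression replicate 2 the TPM difference was called too (-0.40, adjusted p = 0.0148). Fabp4 is also known from fat cells, whose markers Adipoq, Plin1, Cidec, Lep and Retn summed to 0.340 to 3.75 TPM with overexpression and 0.469 to 1.24 TPM in control. The Fabp4 locus is chromosome 3, bases 10204088 to 10208576, minus strand.

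Aqp1, the water channel of capillaries and the highest member by mean TPM, averaged 514 ± 65.2 TPM with overexpression and 484 ± 150 TPM in control (SD, n = 3 each). Gpihbp1, which holds lipoprotein lipase on the capillary wall, averaged 124 ± 22.4 and 115 ± 21.9 TPM, and Cav1, the coat protein of caveolae, 202 ± 66.9 and 181 ± 56.9 TPM in overexpression and control libraries. The groups overlapped in all 3, and none was called on any scale. Single libraries moved 2 of these results after rescaling. Gpihbp1 was called lower without overexpression replicate 3 (-0.64, limma adjusted p = 0.0298) or control replicate 2 (-0.64, adjusted p = 0.0438), and Aqp1 without control replicate 3 (-0.71, adjusted p = 0.0409).

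In the last group, of secreted factors, an enzyme, a cell cycle regulator and Ly6 antigens, 1 of 6 members rose in deposited TPM (16.7%, against 59.0% of all genes). Ly6a, the surface antigen Sca-1, had 402, 405 and 285 TPM in the overexpression libraries, against 203, 221 and 195 TPM in control. The groups stood apart, with overexpression replicate 3 lowest of its group. Ly6a averaged 364 ± 68.5 TPM with overexpression and 206 ± 13.6 TPM in control (SD, n = 3 each), 1.76-fold. The limma difference was 0.80 (SE 0.14, adjusted p = 0.0012) in TPM, 0.54 (adjusted p = 0.00512) relative to the core and 0.17 (adjusted p = 0.236) after rescaling. After rescaling it was called without overexpression replicate 3 (0.29, adjusted p = 0.0259). Ly6a is also known from fibroblasts, and 5 of 6 fibroblast markers were higher in TPM, against 59.0% of all genes. These markers summed to 815 to 1123 TPM in the overexpression libraries and 367 to 473 TPM in control. After rescaling 3 of the 6 were higher and 1 lower, against 22.2% and 24.0% of all genes. The part of fibroblasts in the Ly6a difference was not tested.

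Ly6c1, a relative of Ly6a on capillaries, had 400, 459 and 373 TPM with overexpression, against 372, 406 and 354 TPM in control. The groups overlapped, the TPM difference was 0.12 (limma adjusted p = 0.317), and after rescaling it was called lower (-0.51, SE 0.0773, adjusted p = 0.00126). Its near-identical copy Ly6c2, a monocyte gene, had 0.381 to 2.45 TPM with overexpression and 0.129 to 0.148 TPM in control, and reads shared between the copies could have been split. Egfl7, a secreted endothelial matrix protein, averaged 61.1 ± 18.7 TPM with overexpression and 51.7 ± 3.51 TPM in control, and Vwf, the clotting factor stored in endothelial granules, 26.8 ± 2.00 TPM with overexpression and 20.2 ± 6.01 TPM in control. Neither was called, but Egfl7 was called higher in TPM without overexpression replicate 3 (0.44, adjusted p = 0.0163), lower after rescaling without overexpression replicate 1 (-0.62, adjusted p = 0.0151), and Vwf was called higher in TPM without control replicate 1 (0.61, adjusted p = 0.0216).

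Nos3, the nitric oxide synthase of endothelium, had 9.61, 9.86 and 18.7 TPM with overexpression, against 18.03, 7.45 and 8.76 TPM in control. Rgcc, a cell cycle regulator, had 50.5, 143 and 184 TPM with overexpression, against 209, 106 and 114 TPM in control. In both genes control replicate 1 was the highest of its group and overexpression replicate 3 the highest of its own, the same 2 libraries as in Cldn5. Nos3 and Rgcc were not called on any scale. Rgcc was called lower after rescaling when overexpression replicate 3 was left out (-1.34, limma adjusted p = 0.0467).

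Members differed in how steady their level was within groups, and the libraries that stand apart were not the only ones to depart. The highest control library was 17.4 times the lowest for Aplnr and 6.58 times for Cldn5, against 1.12 times for Tie1 and 1.13 times for Robo4. Control replicate 1 was 6.51 times the mean of the other control libraries for Cldn5, 2.22 times for Nos3, 2.08 times for Sox17 and 1.90 times for Rgcc, but 0.684 times for Cav1, 0.734 times for Kdr and 0.059 times for Aplnr. Overexpression replicate 3 deviated to the same side in these 7 genes, at 2.64, 1.92, 1.69 and 1.91 times its group's other libraries for Cldn5, Nos3, Sox17 and Rgcc, and 0.553, 0.497 and 0.214 times for Cav1, Kdr and Aplnr. These 7 genes were chosen after their values were seen. In Cav1 (139, 246 and 160 TPM in control) and Kdr (48.4, 78.4 and 53.4 TPM) control replicate 2 departed most from the other control libraries. In Rgcc (50.5, 143 and 184 TPM with overexpression) and Aplnr (4.28, 1.501 and 0.617 TPM) overexpression replicate 1 departed most from its group. With both libraries left out, 14 members rose and 0 fell in deposited TPM, 5 rose and 11 fell after rescaling, and 7 rose and 1 fell relative to the core. Shares over all genes were tallied only for the main fits of all 6 libraries, so counts with libraries left out have no background beside them. The 6 further increases in TPM were in Cdh5, Vwf, Cldn5, Egfl7, Apln and Notch1. Without control replicate 1 alone 13 members rose in TPM.

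Relative to the 6 general endothelial genes Pecam1, Cdh5, Tie1, Esam, Erg and Egfl7, the members called higher were Ecscr, Plvap, Dll4, Ly6a, Robo4 and Notch4, and those called lower were Fabp4, Hey1 and Sox18. This scale does not depend on how a library's total is set, apart from the pseudocount of 1 TPM. Ecscr stood at 0.564, 0.550 and 0.409 of the core level in the overexpression libraries, against 0.256, 0.226 and 0.215 in control. Plvap stood at 0.2503, 0.201 and 0.231 with overexpression, against 0.0971, 0.141 and 0.127 in control, and Fabp4 at 3.002, 3.48 and 2.96 times the core with overexpression, against 4.01, 4.72 and 4.94 times in control. The groups did not overlap in any of these 3 genes. Without control replicate 2 the count of members called higher was 3, and the count called lower was 1 without control replicate 1 or without control replicate 3. Of the core genes themselves Tie1 and Pecam1 were called lower and none higher after rescaling, whereas Esam was called higher in TPM.

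**Figure D3:**
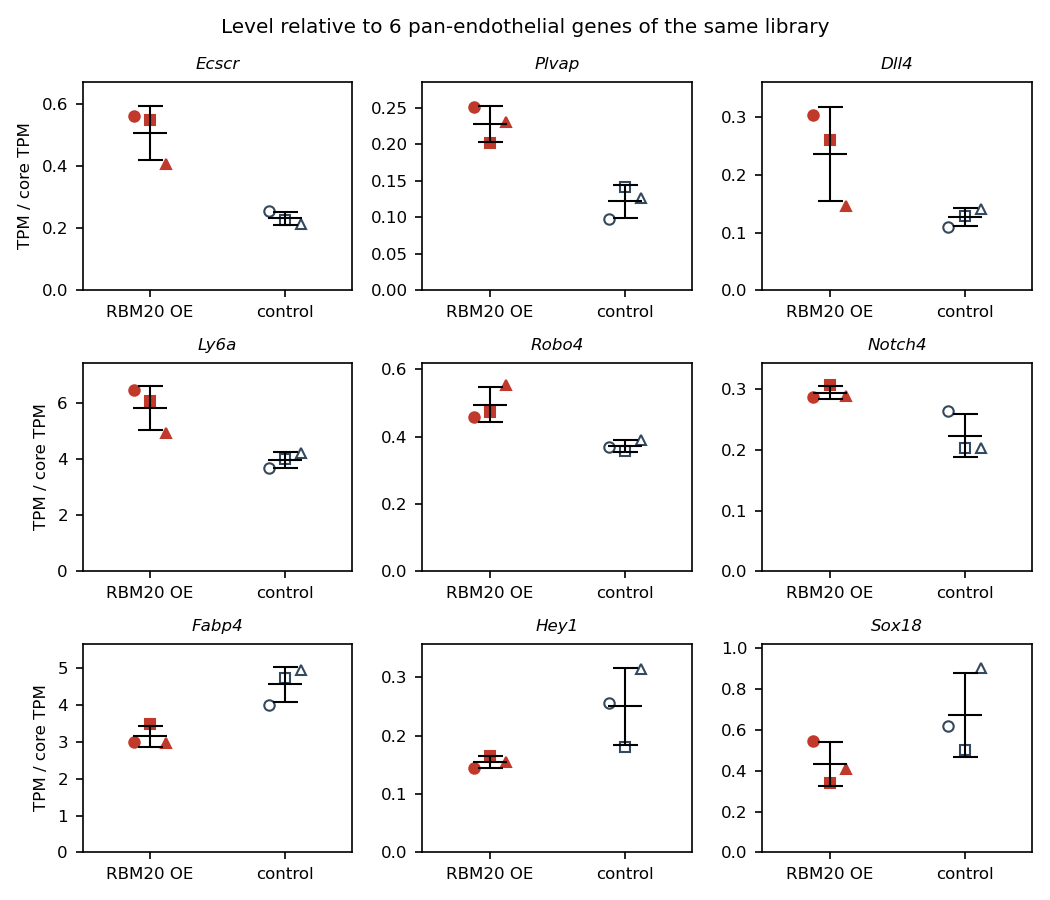
TPM of 9 endothelial genes divided by the geometric mean TPM of 6 general endothelial genes of the same library, with RBM20 overexpression (filled) left of control (open), circle, square and triangle for replicates 1, 2 and 3, and bars for mean ± SD (n = 3 each). Ecscr and Plvap lie above control without overlap, Fabp4 lies below it without overlap, and for Sox18 the groups overlap.

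Ligands, co-receptors, mediators and lipid uptake genes that act with the members were read from a list of 34 genes in the table, of which 33 were tested. In deposited TPM 16 rose and 4 fell, with a median log2 difference of 0.53, near the 0.55 of all genes. These shares were 48.5% higher and 12.1% lower, against 59.0% and 9.09% of all genes. After rescaling 4 rose (12.1%) and 6 fell (18.2%), against 22.2% and 24.0% of all genes. Relative to the core 7 rose (21.2%) and 5 fell (15.2%), against 42.3% and 12.5%. The 4 with the smallest p among increases, Unc5b, Tgfbr2, Vegfd and Rbpj, were called higher on all 3 scales, and Vegfb, Cd36, Lpl and Angpt1 were called lower on all 3. The increases in TPM numbered 10 without overexpression replicate 1 and 9 without overexpression replicate 2, with no share over all genes tallied for these fits.

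Unc5b, a receptor that binds Robo4 in the vessel wall, had 17.1, 17.1 and 14.8 TPM in the overexpression libraries, against 5.44, 6.31 and 5.51 TPM in control. The groups were far apart, 2.84-fold, with a limma difference of 1.36 (adjusted p = 6.79e-05) in TPM and 0.80 (adjusted p = 0.00059) after rescaling. Slit2 and Slit3, ligands of the wider Roundabout family, were not called on any scale, with TPM differences of 0.16 (adjusted p = 0.414) and 0.10 (adjusted p = 0.671). Rbpj, the DNA-binding mediator of Notch signals, averaged 25.6 ± 3.60 TPM with overexpression and 12.02 ± 1.75 TPM in control (SD, n = 3 each), 2.13-fold (1.03, adjusted p = 0.00048; 0.44 after rescaling, adjusted p = 0.023). The Notch ligand Jag1 had 10.8, 9.29 and 3.19 TPM with overexpression, against 2.18, 8.45 and 8.58 TPM in control, and Jag2 averaged 20.8 ± 2.99 and 19.8 ± 4.54 TPM in overexpression and control libraries. Neither was called on any scale, and Jag1 was lowest in overexpression replicate 3 and control replicate 1.

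Among the VEGF family, Vegfb, the ligand of Flt1 made by heart muscle, had 70.8, 63.7 and 79.9 TPM in the overexpression libraries, against 209, 199 and 196 TPM in control. The groups were widely apart, and Vegfb fell to 0.355 times the control mean (-1.49, limma adjusted p = 1.79e-05). Vegfd, a ligand better known from lymphatic vessels, had 4.96, 5.28 and 4.75 TPM with overexpression, against 1.87, 1.77 and 0.958 TPM in control, 3.26-fold (1.26, adjusted p = 0.000498). Vegfa, the ligand of Kdr and Flt1, averaged 134 ± 24.3 TPM with overexpression and 147 ± 29.3 TPM in control (SD, n = 3 each). It was not called in TPM (-0.13, adjusted p = 0.52) and was called lower after rescaling (-0.75, adjusted p = 0.00561) and relative to the core (-0.38, adjusted p = 0.0468). Angpt1, the ligand that activates Tek, averaged 6.90 ± 1.18 TPM with overexpression and 13.3 ± 2.39 TPM in control and fell (-0.85, adjusted p = 0.0023), while Tek, its receptor, was not called in TPM. Tgfbr2, the TGF-beta receptor that can act with Eng, averaged 28.7 ± 4.70 TPM with overexpression and 12.5 ± 2.10 TPM in control and rose (1.14, adjusted p = 0.000406).

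Of 3 lipid uptake genes on the list, Cd36 and Lpl fell in deposited TPM and Fabp5 was not called. Fabp5, another fatty acid carrier, averaged 15.7 ± 4.36 TPM with overexpression and 15.7 ± 3.71 TPM in control (SD, n = 3 each; -0.01, limma adjusted p = 0.968), and was called lower after rescaling (-0.60, adjusted p = 0.0253) but not relative to the core (-0.25, adjusted p = 0.276). Cd36, the fatty acid translocase of capillary endothelium and muscle, had 339, 423 and 391 TPM in the overexpression libraries, against 907, 1114 and 972 TPM in control. Lpl, the lipoprotein lipase that Gpihbp1 holds in place and that heart muscle makes, had 1143, 1629 and 1512 TPM with overexpression, against 2583, 3013 and 2933 TPM in control. The groups did not overlap in Cd36 or in Lpl. Cd36 was at 0.385 times and Lpl at 0.502 times the control mean, with limma differences of -1.37 (adjusted p = 3.64e-05) and -1.01 (adjusted p = 0.00034). Cd36 and Lpl are also expressed in heart muscle, whose 6 markers summed to 21875 to 24649 TPM in the overexpression libraries and 28178 to 30951 TPM in control. Of the 6 markers 1 was higher and 4 lower in TPM, against 59.0% and 9.09% of all genes. After rescaling 0 were higher and 5 lower, against 22.2% and 24.0%. The markers did not move together. Actn2 was at 1.66 times and Ryr2 at 0.105 times the control mean, and Myh6 overlapped between groups. The part of the muscle in these differences was not tested.

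A second list held 44 endothelial genes that are not members, and 42 were tested. In deposited TPM 6 rose and 4 fell, with a median of 0.19, close to the members' 0.18 and below the 0.55 of all genes. These shares were 14.3% higher and 9.52% lower, against 59.0% and 9.09% of all genes, so the share of decreases was near the background. After rescaling 1 rose (2.38%) and 15 fell (35.7%), against 22.2% and 24.0% of all genes. Relative to the core 3 rose (7.14%) and 9 fell (21.4%), against 42.3% and 12.5%. The increases in TPM numbered 3 without overexpression replicate 1, 10 without overexpression replicate 3, and 15 with both libraries that stand apart left out. The decreases numbered 2 without control replicate 2 or 3. No share over all genes was tallied for the fits with libraries left out. Sele, the adhesion molecule E-selectin of activated endothelium, had 8.66, 3.35 and 4.76 TPM in the overexpression libraries, against 1.01, 0.594 and 0.634 TPM in control. The groups did not overlap, and overexpression replicate 1 was the highest. The control mean of 0.745 TPM was below the 1 TPM minimum, so Sele was tested only because of the overexpression libraries. It could enter the test only as an increase, so its calls are no support for one. The same holds for Esm1 and Procr, described below, which are also among the 6 increases in TPM. The 1 increase after rescaling is Sele itself. Sele was 7.503-fold higher and was called on all 3 scales (1.84, limma adjusted p = 0.000589; rescaled 1.45, adjusted p = 0.0047; core-relative 1.69, adjusted p = 0.00111).

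Vcam1, another adhesion molecule of activated endothelium, had 34.7, 35.1 and 22.2 TPM with overexpression, against 15.5, 17.6 and 11.96 TPM in control, and rose in TPM (0.97, limma adjusted p = 0.00303) and relative to the core (0.73, adjusted p = 0.00451) but not after rescaling (0.37, adjusted p = 0.11). Esm1, a proteoglycan of sprouting endothelium, had 2.94, 1.76 and 2.31 TPM with overexpression, against 1.28, 0.336 and 0.0551 TPM in control (1.16, adjusted p = 0.00707; rescaled 0.86, adjusted p = 0.0633). Esm1 had a control mean of 0.557 TPM and likewise reached the minimum for testing only through the overexpression libraries. Icam1, a leukocyte adhesion molecule, was 1.62-fold higher in TPM (0.60, adjusted p = 0.0303) and at 0.03 after rescaling (adjusted p = 0.917). The Icam1 call was lost without any 1 control library (adjusted p = 0.0785, 0.0532 and 0.0561) or overexpression replicate 1 (adjusted p = 0.0688). Selp, the stored adhesion molecule P-selectin, was below the minimum for testing, with 1.12 to 3.03 TPM in the overexpression libraries and 0.041 to 0.151 TPM in control. In the same libraries 9 of 9 macrophage and monocyte markers tested were higher in TPM, against 59.0% of all genes. After rescaling 8 of 9 were, against 22.2% of all genes. Sums over all 10 were 512 to 808 TPM with overexpression and 211 to 271 TPM in control. Among the 9, Ccr2 had 15.0, 5.40 and 0.946 TPM with overexpression, against 0.295 to 0.419 TPM in control. It reached the minimum for testing only through the overexpression libraries. Vcam1 and Icam1 are not confined to endothelium, and the part of macrophages and monocytes was not tested.

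Tmem100, an endothelial target of BMP signalling, had 15.7, 26.6 and 25.5 TPM in the overexpression libraries, against 56.7, 82.6 and 85.9 TPM in control. The groups were far apart, at 0.301 times the control mean (-1.70, limma adjusted p = 0.000282), and it was called lower on all 3 scales. Btnl9, a butyrophilin-like gene of heart capillaries, averaged 9.79 ± 1.74 TPM with overexpression and 14.8 ± 2.32 TPM in control (-0.56, adjusted p = 0.0154). Car4, a carbonic anhydrase on the capillary surface, averaged 17.8 ± 4.47 and 29.7 ± 8.08 TPM in overexpression and control libraries (-0.70, adjusted p = 0.0213). Ramp2, the partner of the adrenomedullin receptor, averaged 30.6 ± 6.27 TPM with overexpression and 40.5 ± 2.13 TPM in control (-0.41, adjusted p = 0.0324). Car4 overlapped between groups while Btnl9 and Ramp2 did not, and all 3 were called lower on the other scales too. In TPM the Btnl9 call was lost without control replicate 2 (adjusted p = 0.0606). The Car4 call was lost without control replicate 2 or 3 or overexpression replicate 1 or 3 (adjusted p = 0.069, 0.0544, 0.0675 and 0.0582). The Ramp2 call was lost without control replicate 1, 2 or 3 or overexpression replicate 1 or 3 (adjusted p = 0.0705, 0.0876, 0.0567, 0.0948 and 0.0797).

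**Figure D4:**
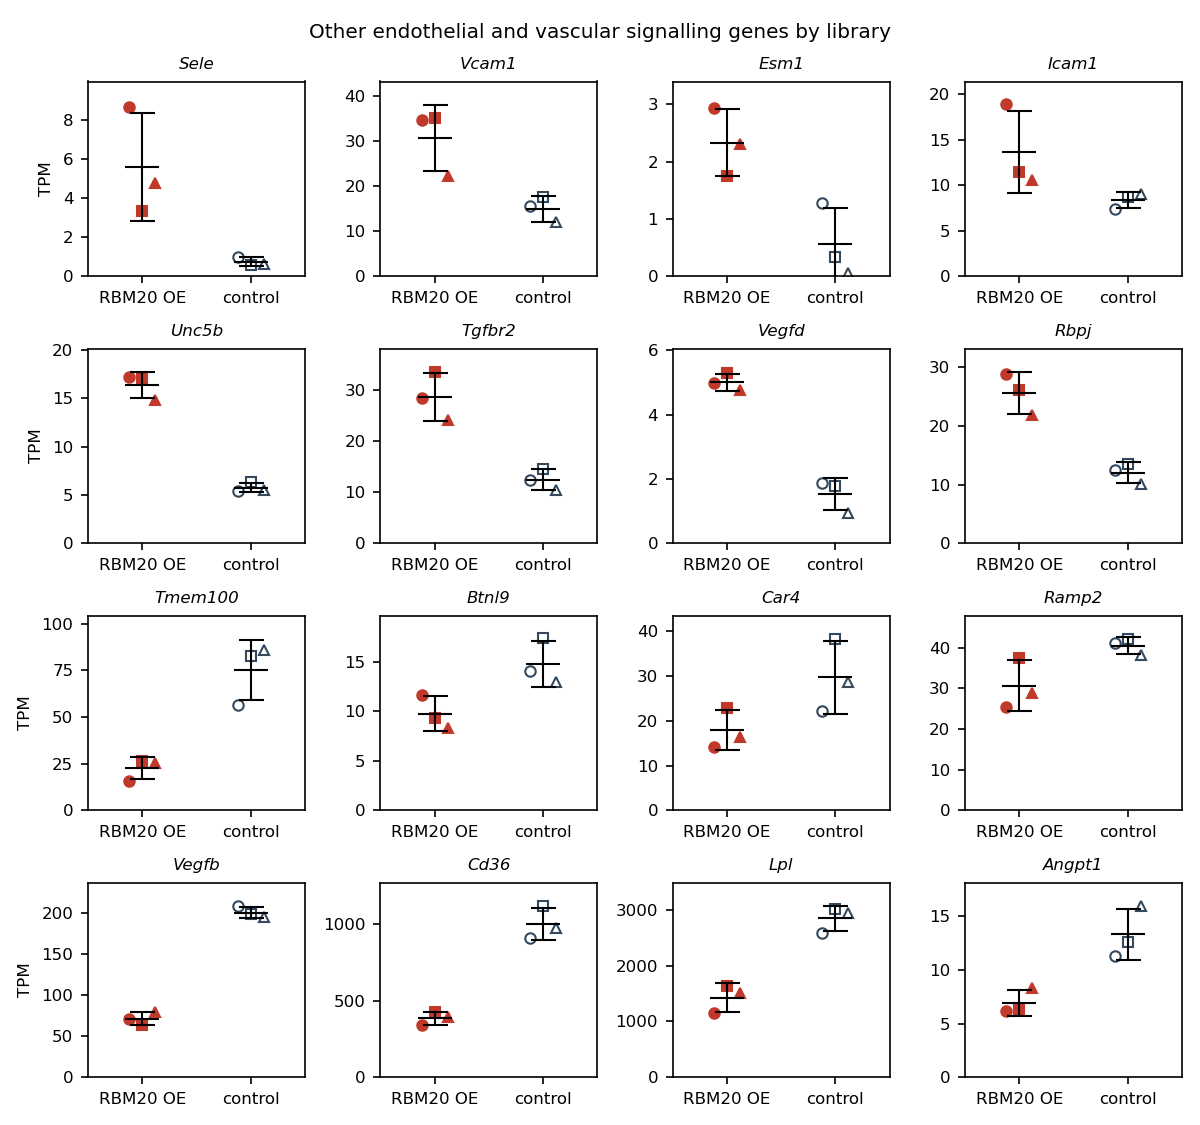
TPM by library of 16 genes that are not members, with RBM20 overexpression (filled) left of control (open), circle, square and triangle for replicates 1, 2 and 3, and bars for mean ± SD (n = 3 each). Upper rows hold 8 genes called higher in TPM and lower rows 8 called lower, and Sele, Unc5b, Vegfb and Cd36 are apart without overlap.

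Markers of other vessel cells moved unevenly. Over all genes 59.0% were called higher and 9.09% lower in TPM, and 22.2% and 24.0% after rescaling. Pericyte and smooth muscle markers summed to 620 to 672 TPM in the overexpression libraries and 592 to 724 TPM in control, and of 7 tested 2 were higher and 1 lower in TPM. After rescaling their sums were 502 to 534 with overexpression and 756 to 911 in control, without overlap, and 1 was higher and 4 lower. Rgs5 was the largest part of these sums, at 336 to 385 TPM with overexpression and 336 to 440 TPM in control. The markers split, with Cspg4 at 4.53 times, Pdgfrb at 2.08 times and Abcc9 at 0.656 times the control mean TPM. Lymphatic endothelial markers summed to 97.5 to 128 TPM with overexpression and 65.2 to 76.4 TPM in control, and 2 of 5 were higher. After rescaling these sums were 83.8 to 95.6 and 83.3 to 96.0 in overexpression and control libraries, with 1 higher and 1 lower. The 6 core endothelial genes summed to 443 to 484 TPM with overexpression and 336 to 413 TPM in control, and after rescaling to 358 to 382 and 429 to 519 TPM. Each marker of these lists had a value above 0 in at least 1 library. The part of any of these cell types in the members' differences was not tested.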

How the data were processed

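Libraries were made from left ventricle RNA enriched for polyadenylated molecules and sequenced as paired reads, per the labels' protocols. The authors deposited TPM per gene, as named in the file, and the submitters' processing notes name STAR-Fusion 1.11.0, GATK 4.2.6.1, edgeR 3.40.2, featureCounts 2.0.3 and the build mm8 with no role for any. Aligner, annotation and the use of strand in counting are not given in the sources at hand, so near-identical or overlapping genes may share reads. TPM removes depth, which was estimated from steps between low values with GENCODE M21 gene lengths. Of those low values 50.0% to 59.3% were whole to within 0.02 reads, so the depths are approximate.

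The 12404 genes averaging 1 TPM or more over the 6 libraries were tested with limma 3.58.1 in R 4.3.3 on log2(TPM + 1) with a trended prior, two-sided, with Benjamini-Hochberg adjustment over all 12404 and a threshold of 0.05. The pseudocount of 1 understates differences of low genes. Fold differences are ratios of mean TPM. The fit was repeated after rescaling by median of ratios (factors 1.16 to 1.34 with overexpression, 0.783 to 0.848 in control) and relative to 6 general endothelial genes. All 3 fits use the same libraries and are no separate evidence, and the core genes are members themselves. The scripts were tested on simulated data. All 33 members are named, and of the other lists the 4 smallest p in each direction plus ligands or receptors of called members. The rule for members uses symbols only, but members, lists and tests were chosen with earlier results of these data known. Alternatives were another pseudocount (0.1 TPM), other filters, a constant prior, mitochondrially encoded genes removed, other cores and each library left out. Leaving out the 2 libraries that stand apart was added after seeing the data. Figures were drawn with matplotlib 3.10.9.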

Additional observations from a re-analysis of the deposited data

How the results depend on the processing

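No paired analysis was possible because the labels give the groups no shared replicate numbers. Leaving out each library in turn gave 6 to 13 members called higher and 0 to 1 lower in deposited TPM, 1 to 4 and 7 to 9 after rescaling, and 3 to 6 and 1 to 3 relative to the core. For the signalling partners it gave 9 to 16 higher and 4 lower, and for the other endothelial genes 3 to 10 higher and 2 to 4 lower. With a library left out, the fit rests on the pooled spread of the 5 that remain. Shares over all genes were tallied for the main fits only, so counts under other settings have no background beside them. Log2 differences of genes that changed sign when a library was left out ranged as follows. In TPM they were Kdr -0.23 to 0.35, Sox17 -0.31 to 0.27, Cav1 -0.081 to 0.42, Aplnr -0.59 to 0.40, Rgcc -0.67 to 0.25, Nos3 -0.11 to 0.53, Flt1 -0.027 to 0.38, Tek -0.038 to 0.34, Aqp1 -0.094 to 0.35 and Egfl7 -0.0105 to 0.44. After rescaling they were Vwf -0.40 to 0.02003, Cldn5 -0.11 to 1.29, Erg -0.34 to 0.015, Notch4 -0.10 to 0.20, Esam -0.20 to 0.022, Apln -0.076 to 0.61 and Robo4 -0.0397 to 0.094. Relative to the core they were Flt1 -0.24 to 0.085, Nos3 -0.39 to 0.26, Aqp1 -0.28 to 0.054, Notch1 -0.17 to 0.18, Tek -0.20 to 0.055, Cav1 -0.33 to 0.11, Aplnr -0.81 to 0.21, Emcn -0.022 to 0.27, Gpihbp1 -0.28 to 0.015 and Kdr -0.48 to 0.043, and for partners in TPM Jag1 -0.25 to 0.74, Vegfa -0.28 to 0.0065, Jag2 -0.0298 to 0.25 and Slit3 -0.0201 to 0.27.

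With control replicate 1 and overexpression replicate 3 both left out, counts were 14 higher in TPM, 5 higher after rescaling, 1 lower relative to the core, and 15 higher for the other endothelial genes. Sox17 was then at 0.0205 and Aplnr at -0.20 in TPM, Robo4 at -0.000347 after rescaling, Notch1 at 0.10 relative to the core, and Vegfa at 0.000871. With mitochondrially encoded genes removed, 5 members were called higher and 4 lower, 7 partners higher, and 10 other endothelial genes lower. The differences of Pecam1 (-0.18), Kdr (-0.26), Flt1 (-0.12), Tek (-0.14), Eng (-0.13), Nos3 (-0.0842), Egfl7 (-0.0885), Cav1 (-0.14), Gpihbp1 (-0.17), Aqp1 (-0.16), Aplnr (-0.15), Notch1 (-0.0392), Ly6c1 (-0.16), Jag2 (-0.20), Slit2 (-0.0358) and Slit3 (-0.15) then turned negative, as the removal lowers every value with overexpression relative to control. With no filter 1 member was lower relative to the core, 10 partners were higher and 2 other endothelial genes lower, and with a minimum of 5 TPM 3 other endothelial genes were higher. After rescaling 4 partners and 1 other endothelial gene were higher and 15 other endothelial genes lower, with Jag1 at -0.26, Jag2 at -0.52, Slit2 at -0.27 and Slit3 at -0.41. With these exceptions, counts stayed within 1.5 times. With no filter on low values the calls of Ptprb in TPM (adjusted p = 0.0531), Tek after rescaling (0.089), Sox18 (0.117), Dll4 (0.0651), Notch4 (0.0627) and Hey1 (0.055) relative to the core, and Icam1 (0.0685), Car4 (0.0549) and Ramp2 (0.0613) in TPM were lost. A constant prior lost Tek (0.0586) and Sox18 (0.0651), a pseudocount of 0.1 TPM Sox18 (0.0502), a core of Pecam1 and Cdh5 Robo4 (0.0675), Sox18 (0.0521) and Notch4 (0.101), and a core of all members averaging 10 TPM or more Robo4 (0.079) and Notch4 (0.107). Where no construction is named, the cause was not tested. The table holds no counts, so counting error could not be given.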

Other observations

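Of 13 endothelial transcription factors that are not members, 0 were called by limma in deposited TPM, against 59.0% of all genes higher and 9.09% lower. There 9 had positive and 4 negative differences. At an unadjusted p under 0.05 there was 1, Sox7, which was lower, with no share over all genes tallied at that threshold. Sox7, Gata2 and Tcf15 were called lower after rescaling and relative to the core, 3 of 13 (23.1%) on each scale, near the 24.0% of all genes after rescaling and against 12.5% relative to the core. The other 10, among them Fli1, Ets1 and Elk3, were not called on any scale. Sox7, Gata2 and Tcf15, chosen after their values were seen, averaged 11.5 ± 2.35, 9.17 ± 1.74 and 11.3 ± 2.26 TPM in the overexpression libraries, against 15.5 ± 1.95, 12.3 ± 3.52 and 14.6 ± 2.93 TPM in control (SD, n = 3 each). In deposited TPM none was called (limma adjusted p = 0.0564 for Sox7, 0.139 for Gata2 and 0.13 for Tcf15). After rescaling the differences were -0.99 for Sox7 (adjusted p = 0.00391), -0.94 for Gata2 (adjusted p = 0.00988) and -0.92 for Tcf15 (adjusted p = 0.00373), and relative to the core -0.65 (adjusted p = 0.0251), -0.60 (adjusted p = 0.0305) and -0.58 (adjusted p = 0.0388). The TPM ranges overlapped between groups for Sox7 and Gata2, and for Tcf15 the highest overexpression library (12.7 TPM) was just below the lowest control library (12.9 TPM). The flow-induced factors Klf2 and Klf4 were not called on any scale, with 48.7 ± 6.33 and 50.5 ± 18.4 TPM with overexpression, against 47.0 ± 17.6 and 63.8 ± 48.5 TPM in control. Klf4 had 33.2, 48.6 and 69.8 TPM with overexpression, against 120, 34.7 and 37.0 TPM in control, where replicate 1 stood far above the others. Efnb2, an arterial ligand, and Procr, the protein C receptor, were the remaining increases in TPM among the 42 endothelial genes tested that are not members, at 0.50 (limma adjusted p = 0.043) and 1.03 (adjusted p = 0.0377). Both were chosen after their values were seen, neither was called on the other scales, and the groups overlapped in both. Procr, with a control mean of 0.946 TPM, reached the 1 TPM minimum only through the overexpression libraries. The genes of this paragraph were not recomputed under the other settings.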
